A study of Mus musculus with 2 samples.

Results

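The miR-181 family of microRNAs (miRNAs) is described here by its 4 guide strands, mmu-miR-181c-5p, mmu-miR-181d-5p, mmu-miR-181a-5p and mmu-miR-181b-5p, in the lungs of mice given monocrotaline (MCT) and of untreated mice. They were taken as the 4 probes bearing these names, of 1141 mouse miRNA probes on the array. The family was chosen with the ratios of these arrays already known, so its ratios are given as a description and no test was made on them. The series held 1 array of MCT-treated lung and 1 of untreated lung, both labelled wild type. The treated mice were 14 weeks old and had received MCT, a plant toxin used to model pulmonary arterial hypertension in rodents, over 30 days. The age of the untreated mice, and whether an array carried RNA of 1 animal or of a pool, are not given in the sources used here. From each sample 2 µg of total RNA was labelled with Cy3 and hybridised to a microfluidic chip with 3 repeat spots per miRNA. With 1 array per group no difference has a replicate check and no p-value was computed. Errors are standard deviations (SD) over the 3 spots of an array (n = 3 spots), or for ratios both arrays' SDs combined, and cover the spread within arrays, not between animals.

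A miRNA is cut from a hairpin precursor, and its guide strand directs the silencing complex to messenger RNAs through its seed, bases 2 to 8. All miR-181 guide strands share 1 seed, so they are predicted to recognise overlapping sets of targets, while they come from separate gene clusters that can be transcribed apart. In mice miR-181a tunes the strength of T cell receptor signalling and is abundant in the thymus, and miR-181b dampens NF-κB signalling in endothelial cells. miR-181c has been found in mitochondria of rat heart muscle cells, where it acts on a mitochondrial transcript. Lung tissue is a mixture of many cell types, and in such bulk samples a change in the number of cells that make a miRNA cannot be told apart from a change in its amount per cell.

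The guide strands are printed below because they differ from each other at few positions, on which the separate measurement of the family members rests. The sequences are the targets given in the array files, 5′ to 3′, with the shared seed in capitals.
miR-181c-5p: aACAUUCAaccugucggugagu
miR-181d-5p: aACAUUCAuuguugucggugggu
miR-181a-5p: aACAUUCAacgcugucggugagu
miR-181b-5p: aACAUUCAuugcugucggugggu
Positions are counted from 1 at the 5′ end of the miRNA named first. Between miR-181a-5p and miR-181c-5p the difference was 1 deleted base, G11del, and between miR-181b-5p and miR-181d-5p it was 1 substitution, C12U. The strands within a gene cluster were further apart: miR-181a-5p and miR-181b-5p differed by A9U, C10U and A21G. Each strand therefore has its closest relative in the other kind of cluster. No other of the 1141 array targets had this seed, so the family had 4 probes in all.

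In the RefSeq annotation of GRCm38.p6 the sequences of miR-181c-5p, miR-181d-5p and miR-181a-5p matched the array targets in full, and that of miR-181b-5p was 24 bases long against a target of 23. miR-181c-5p lies at chr8:84178924-84178945 and miR-181d-5p at chr8:84178759-84178781, both on the minus strand. Their hairpin genes are 85 bp apart, overlap no other annotated gene, and have Nanos3, a germ cell gene, as a neighbour. miR-181a-5p and miR-181b-5p are each encoded by 2 genes. One pair is on chromosome 1, at chr1:137966468-137966490 and chr1:137966650-137966673 on the plus strand, with Ptprc, which encodes the leukocyte antigen CD45, among the nearest genes. The other pair is at chr2:38852741-38852763 and chr2:38853845-38853868 on the plus strand, within the bounds of the nuclear receptor gene Nr6a1 and of the long non-coding RNA gene Nr6a1os. Since both loci give the same guide strands, the array cannot separate the chromosome 1 from the chromosome 2 cluster.

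Both strands of the c/d cluster were brighter on the MCT array by a larger factor than the strands of the a/b clusters. miR-181c-5p was 3.13-fold higher in MCT-treated lung, miR-181d-5p 1.96-fold, miR-181b-5p 1.46-fold and miR-181a-5p 1.12-fold, after quantile normalization of the arrays. The rise of miR-181a-5p held for that normalization but turned into a lower value when the arrays were centred on the miRNAs detected on both. Centred at their median its log2 ratio was -0.68, beside a median of -0.69 over all detected miRNAs. A miRNA was called higher or lower when it was detected on either array, the arrays differed by 2-fold or more (a log2 ratio of 1 in either direction), and no spot of one array overlapped those of the other. By this rule 1 of the 4 members was called higher, miR-181c-5p, and 0 lower, beside 4.16% higher and 2.2% lower of all 409 detected miRNAs. The family was picked from the same contrast, so its share is given beside the background and nothing is read from it.

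mmu-miR-181c-5p had the largest ratio of the family. Its 3 spots read 3823, 4193 and 3968 scanner units in MCT-treated lung, against 471, 562 and 589 in untreated lung. Every MCT spot was far above every untreated spot, and relative to their mean the untreated spots were the more uneven set. The means were 3995 ± 186 and 541 ± 61.9 scanner units, a 7.39-fold ratio before any correction. Empty spots had medians of 252.8 on the MCT array and 100.7 on the untreated array, and above these levels the ratio was 8.50-fold. After normalization its log2 level was 11.36 ± 0.075 in MCT-treated and 9.71 ± 0.18 in untreated lung, a log2 ratio of 1.65 ± 0.20. That was the rank 3 ratio among the 310 miRNAs detected on both arrays. None of the 54 other miRNAs within 0.5 log2 of its mean level had a higher ratio, and these had a median of -0.050 and a highest value of 1.09.

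mmu-miR-181d-5p, the neighbour of miR-181c-5p in the genome, had a ratio just under 2-fold. The spots read 1742, 1735 and 1645 in MCT-treated lung, against 351, 343 and 361 in untreated lung, again with no overlap. Its mean scanner values were 1707 ± 54.2 and 351.6 ± 9.41, a 4.86-fold ratio uncorrected and 5.80-fold above the empty spots. The normalized log2 levels were 10.01 ± 0.068 in MCT-treated and 9.04 ± 0.073 in untreated lung, and the log2 ratio was 0.97 ± 0.099, the rank 19 of 310. Of the 32 other miRNAs of a like level, 2 had a higher ratio. In untreated lung it was the dimmest member relative to the detection limit of the array, at 2.95 to 3.11 times the limit, while miR-181c-5p stood at 4.05 to 5.07 times.

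mmu-miR-181a-5p, the member best known from T cells, showed the smallest ratio. Its spots read 18199.8, 18276 and 17922 in MCT-treated lung, against 10845, 11406.5 and 10940.5 in untreated lung. The 2 sets did not overlap, and the uncorrected ratio was 1.64-fold. The normalized log2 levels of 13.91 ± 0.018 in MCT-treated and 13.74 ± 0.029 in untreated lung gave a log2 ratio of 0.17 ± 0.034, rank 116 of 310. For 4 of the 19 other miRNAs of a like level the ratio was higher. All 310 miRNAs detected on both arrays had a median of 0.023, so miR-181a-5p lay close to the middle of the arrays.

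mmu-miR-181b-5p, which shares its hairpin clusters with miR-181a-5p, lay between miR-181a-5p and the c/d strands. Its spots read 3621, 3592 and 3522 in MCT-treated lung, against 1187, 1218 and 1185 in untreated lung, a 2.99-fold uncorrected ratio. This was a tight set of spots on each array, with no overlap between them. The normalized log2 levels were 11.23 ± 0.020 in MCT-treated and 10.68 ± 0.018 in untreated lung, and the log2 ratio was 0.55 ± 0.027, rank 47 of 310. Of the 43 other miRNAs of a like level 9 had a higher ratio.

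**Figure D1:**
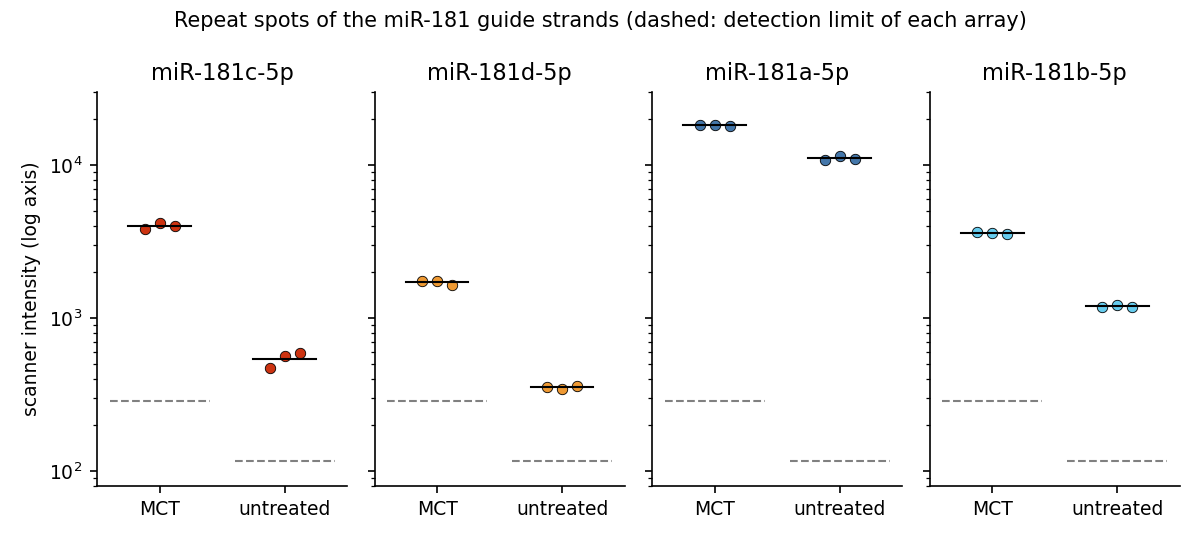
Scanner intensity (log axis) of each of the 3 repeat spots of a miR-181 guide strand on the MCT array (left in each panel) and the untreated array (right). Black bars are means over spots and dashed lines the detection limits of 284 and 116. All MCT spots lie above the untreated spots of the same miRNA, and the step is widest for miR-181c-5p (3995 against 541 on average) and narrowest for miR-181a-5p.

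All 4 members were detected with 3 of 3 spots on both arrays, above limits of 284 for MCT and 116 for untreated lung set at the 95th percentile of the empty spots. After normalization the spots of the arrays did not overlap for any of them, with the MCT spots higher. This was common: on normalized values it held for 127 (41%) of the 310 miRNAs detected on both arrays. The share in scanner units was not counted. There the MCT spots lay above the untreated spots even for the undetected miR-181c-3p, at 225.9 to 234.6 against 105.9 to 111.6. The MCT array was brighter as a whole, with a median miRNA spot of 226 against 105 on the untreated array, so an uncorrected ratio mixes the miRNA with the array. A normalized ratio says where a miRNA moved against the rest of the array.

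**Figure D2:**
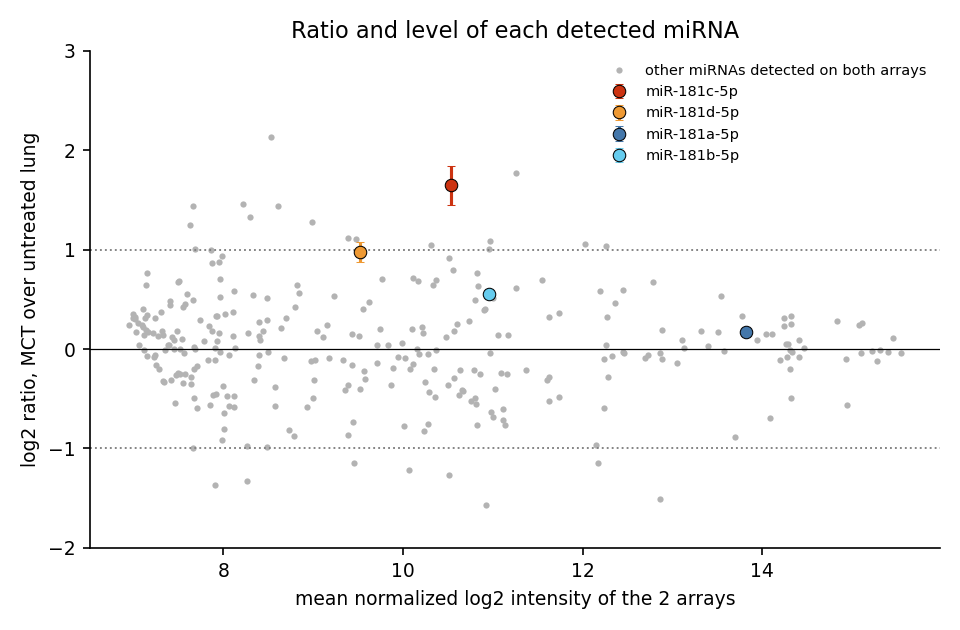
Log2 ratio of MCT over untreated lung (vertical) against the mean normalized log2 intensity of both arrays (horizontal) for the 310 miRNAs detected on both. Coloured points are the 4 miR-181 guide strands with the SD over spots, grey points the other miRNAs, and dotted lines 2-fold. miR-181c-5p stands at 1.65, above every miRNA within 0.5 log2 of its level, whereas miR-181a-5p stands at 0.17.

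The c/d cluster was then set against the a/b clusters. The mean log2 ratio was 1.31 ± 0.11 for miR-181c-5p and miR-181d-5p, and 0.36 ± 0.022 for miR-181a-5p and miR-181b-5p. The difference of 0.95 ± 0.11 is a 1.93-fold larger ratio of the c/d strands, and it is larger than the spread over spots. Neighbours in the order also stood apart by more than that spread: miR-181c-5p exceeded miR-181d-5p by 0.67 ± 0.22, miR-181d-5p exceeded miR-181b-5p by 0.43 ± 0.10, and miR-181b-5p exceeded miR-181a-5p by 0.38 ± 0.044. The spread between animals was not measured. Under each of 18 alternative ways of processing the arrays the order of the 4 ratios was the same, and the lower c/d strand stayed above the higher a/b strand. These alternatives were not independent: those without normalization or with a constant scaling of each array share the same gaps by construction. The gap between miR-181c-5p and miR-181a-5p ranged from 1.37 to 2.19.

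The size and sign of single ratios depended on the scaling. Without normalization the log2 ratios were 2.90 for miR-181c-5p, 2.25 for miR-181d-5p, 0.71 for miR-181a-5p and 1.55 for miR-181b-5p, while the median of all detected miRNAs was 0.70. Centring each array on the miRNAs detected on both, at their median, gave 1.51, 0.86, -0.68 and 0.16 in the same order, with a median over all detected miRNAs of -0.69. Relative to that median miR-181a-5p was near 0 and the c/d strands were high under both. The number of members called higher was 3 without normalization, scaled by the 5S probes or centred on the median, beside 34.7%, 23.7% and 23.7% of all detected miRNAs. It was 2, with miR-181d-5p the added one, when centred on the 75th percentile of all miRNAs (beside 12%) or of those detected on both arrays (4.16%), with cyclic loess (3.91%), with the empty-spot median subtracted (11.2%) or with an offset of 16 (5.87%). The count was also 2 with the median of the spots (4.4%), without the repeat spot numbered 3 (4.89%), with a threshold of 1.5-fold (11.2%), and in the authors' deposited table at a pseudocount of 50 (4.89%) or 16 (6.85%). That table holds no repeat spots, so its calls were made without the rule on spot overlap. Centred on the median of miRNAs detected on both, the count was 1, beside 1.47%. miR-181c-5p was past 2-fold under all 18 alternatives, and miR-181d-5p under 12 of them. In the authors' deposited table of processed intensities miR-181c-5p had 2305 in MCT-treated and 729 in untreated lung, 3.16-fold, and miR-181d-5p had 929.8 and 412, 2.26-fold. The same deposited table of the authors had 14635 and 13369.0 for miR-181a-5p, 1.09-fold, and 2159.9 and 1717 for miR-181b-5p, 1.26-fold.

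**Figure D3:**
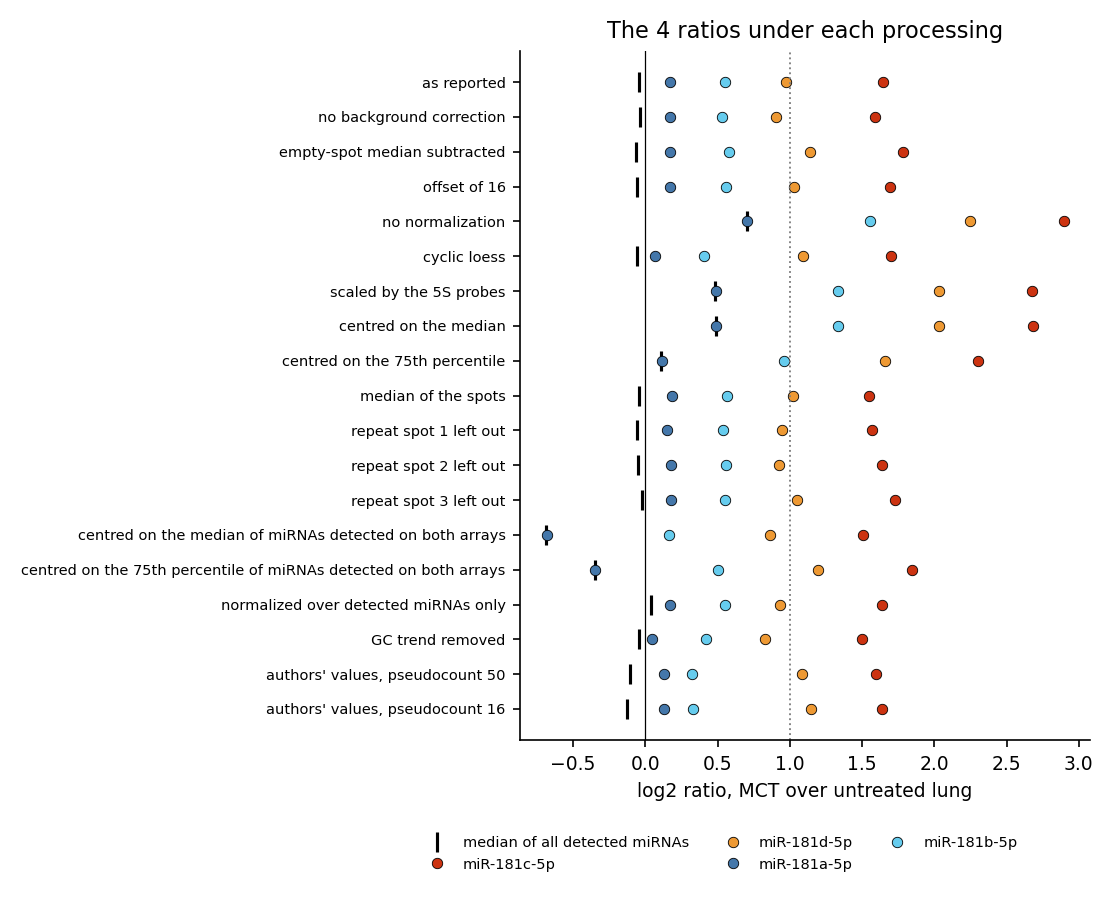
Log2 ratio of MCT over untreated lung (horizontal) of the 4 miR-181 guide strands, as reported (top) and under 18 alternatives (rows). Black ticks are the median of all detected miRNAs, the dotted line is 2-fold. The order of the 4 strands is the same in each row, and miR-181a-5p falls below 0 in the 2 rows centred on miRNAs detected on both arrays. Rows without normalization or with a constant scaling of each array differ only by a common shift.

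The members' base composition was alike, and the ratios on these arrays varied with GC content. The GC content was 45.5% for miR-181c-5p, 43.5% for miR-181d-5p and 47.8% for both miR-181a-5p and miR-181b-5p. GC-rich miRNAs tended to have lower ratios (Spearman's rho -0.36 across the 310 miRNAs detected on both arrays, all read from the same 2 arrays). The trend amounted to 0.14 and 0.15 log2 for miR-181c-5p and miR-181d-5p, and to 0.13 for each of the a/b strands. With it removed the ratios were 1.502, 0.83, 0.04 and 0.42 for miR-181c-5p, miR-181d-5p, miR-181a-5p and miR-181b-5p. One member of 4 was then called higher, miR-181c-5p, beside 1.96% of all detected miRNAs.

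The close similarity of the targets was examined next, since probes for near-identical miRNAs can take up each other's signal. On the array 24 pairs of miRNAs detected on both arrays differed by 1 base change (a substitution, deletion or insertion), and 2 of them were the miR-181 pairs. miR-181c-5p and miR-181a-5p differed in log2 ratio by 1.48 ± 0.20. The other 22 pairs had a median difference of 0.14 and a highest of 1.18, so none exceeded the miR-181c-5p and miR-181a-5p pair. That pair also had the largest gap of the single-base pairs under each of the 18 alternatives. Those without normalization or with a constant scaling of each array give identical gaps. miR-181d-5p and miR-181b-5p differed by 0.43 ± 0.10, which 5 of the 22 other pairs exceeded. How far these probes respond to each other's miRNA was not tested. The pairs were not matched for level, and some share a member. In MCT-treated lung miR-181a-5p was at a log2 level of 13.91 and miR-181c-5p at 11.36. Both strands were brighter in let-7a-5p and let-7c-5p (15.53 and 15.31) and dimmer in miR-101a-3p and miR-101b-3p (8.14 and 7.68). Ratio quartiles were -0.096 and 0.16 for miRNAs of a level like miR-181a-5p, and -0.43 and 0.47 for a level like miR-181c-5p.

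The pair next in size was miR-100-5p and miR-99a-5p, printed with the seed in capitals because it too holds a single change, U16A from miR-99a-5p to miR-100-5p.
miR-100-5p: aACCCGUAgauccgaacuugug
miR-99a-5p: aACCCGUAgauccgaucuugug
miR-100-5p, of a family that acts on Mtor, had a log2 ratio of 1.77 ± 0.094 and miR-99a-5p one of 0.59 ± 0.028. After it came miR-10b-5p from the Hoxd locus and miR-10a-5p from the Hoxb locus, with 1.11 ± 0.20 and 0.038 ± 0.051. In contrast miR-27a-3p and miR-27b-3p, whose targets also differ by 1 base, had 0.091 ± 0.026 and 0.16 ± 0.059, a difference of 0.064. Over pairs with 4 changes, miR-181c-5p and miR-181b-5p differed by 1.10 ± 0.20, which 5 of 43 other pairs exceeded.

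**Figure D4:**
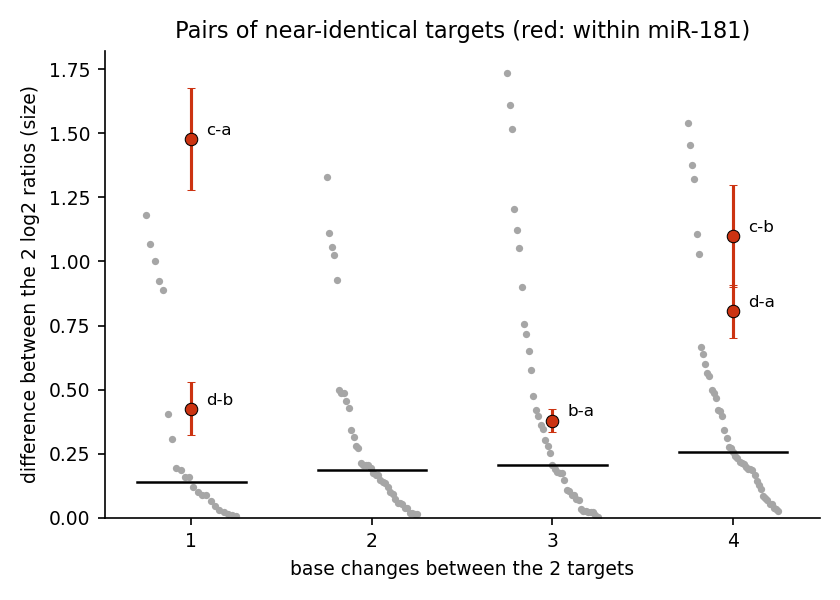
Size of the difference between the log2 ratios of miRNA pairs (vertical) by the number of base changes between their targets (horizontal), for miRNAs detected on both arrays. Red points are pairs within miR-181 with the SD over spots, named by their letters, grey points other pairs in order of size, and bars their medians. The c-a pair, 1 base apart, stands at 1.48, above the 22 other pairs with 1 change. Pairs are not matched for level.

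Set beside other families that share a seed, miR-181 was among the more divided. There were 14 families with at least 3 members detected on both arrays. The range of log2 ratios within miR-181 was 1.48 ± 0.20, the rank 2 of the 14, and the other 13 had a median range of 0.75. The widest was the family of miR-467b-3p to miR-467e-3p, from the Sfmbt2 gene cluster, with 4 detected of 7 probes, ratios of -0.40 ± 0.087 to 1.11 ± 0.097, and a range of 1.52. Next below miR-181 was the family of miR-99b-5p, miR-99a-5p and miR-100-5p at 1.45. The let-7 family with miR-98-5p, which holds cells in a differentiated state, had 9 detected members within a range of 0.25, and the 5 detected miR-30 members, abundant in lung, lay within 0.31. The families were not matched for level, with let-7a-5p at a log2 level of 15.53 and miR-30a-5p at 14.32 in MCT-treated lung. miRNAs of a level like miR-181a-5p had ratio quartiles of -0.096 and 0.16, those of a level like miR-181c-5p -0.43 and 0.47. Under the 18 alternatives miR-181 was the widest of the 14 families in 7, the next widest in 6 and further down in 5. The 7 were the run without repeat spot 3, no normalization, and the constant scalings of each array. All but the first of these share the same ranges by construction and so count as 1 result. All 4 miR-181 members were above 0 as reported, with a median of 0.76, beside -0.044 for all 409 detected miRNAs.

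**Figure D5:**
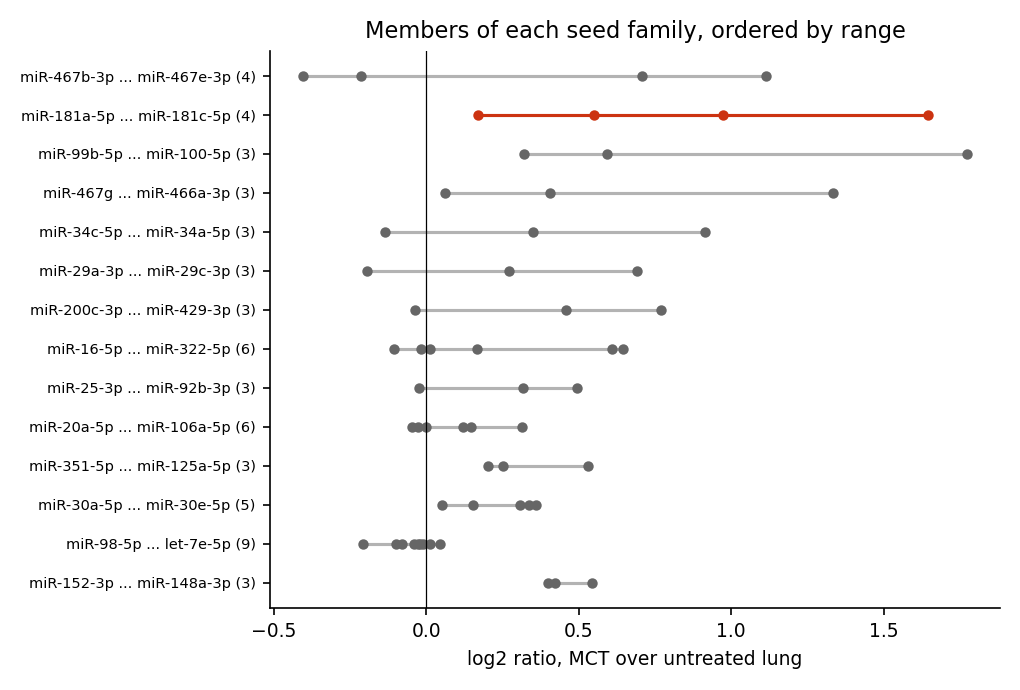
Log2 ratio of MCT over untreated lung (horizontal) of each detected member of the 14 seed families with at least 3 members detected on both arrays. Rows are ordered by range and named by their lowest and highest member, with the number of members in brackets. The miR-181 family (red) runs from 0.17 to 1.65, while the 9 members of let-7 with miR-98-5p lie within 0.25. Families are not matched for level.

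The other arms of the miR-181 hairpins, which are usually degraded after the guide strand is loaded, gave no usable signal. All 6 had probes and 0 of 6 were detected on either array. The sequences of the pair from the chromosome 1 and chromosome 8 hairpins are printed with the seed in capitals, because these arms differ at few bases. The changes are U16G and U19G, from miR-181a-1-3p to miR-181c-3p. With neither arm detected, their probes could not read these hairpins apart.
miR-181c-3p: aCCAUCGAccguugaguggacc
miR-181a-1-3p: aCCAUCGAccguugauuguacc
miR-181c-3p averaged 230.3 ± 4.35 scanner units in MCT-treated and 109.7 ± 3.30 in untreated lung. The MCT value was under the empty-spot median of 252.8 there. miR-181a-1-3p averaged 244.7 ± 3.57 and 109.9 ± 8.37, with 1 of 3 untreated spots, at 119.6, above the limit of 116. The remaining arms, miR-181d-3p, miR-181a-2-3p, miR-181b-1-3p and miR-181b-2-3p, averaged 197.1 to 209.5 in MCT-treated and 91.4 to 102.2 in untreated lung. So the other arm of miR-181c was at the level of empty spots on the array where its guide strand read 3995. The array target of miR-181a-2-3p differed from the RefSeq sequence of that arm, and that of miR-181b-1-3p was 19 of 21 bases.

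Mir23a, Mir27a and Mir24-2, a cluster active in blood vessels and many other tissues, are the next annotated miRNA genes to Mir181c, 29556 bp away. Of its 6 strands on the array 5 were detected, and 0 were called higher and 0 lower, beside 4.16% and 2.2% of all detected miRNAs. The detected ones had a median log2 ratio of -0.0020, beside -0.044 for all detected miRNAs. The largest ratios in size were -0.32 ± 0.096 for miR-24-2-5p, 0.24 ± 0.14 for miR-23a-3p and 0.091 ± 0.026 for miR-27a-3p. These strands therefore stood near the middle of the arrays, with miR-181c-5p at 1.65 and miR-181d-5p at 0.97. The 2 loci were not matched for level. In MCT-treated lung miR-181c-5p and miR-181d-5p were at log2 levels of 11.36 and 10.01. miR-23a-3p, miR-27a-3p and miR-24-3p were brighter, at 15.20, 14.46 and 14.30, and miR-24-2-5p and miR-23a-5p dimmer, at 8.85 and 7.68. Some of the mir-23a cluster strands are also made from a second cluster elsewhere in the genome, as with miR-24-3p, whose ratio was -0.0075 ± 0.038.

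Because miR-181 is prominent in lymphocytes, 8 miRNAs of lymphocytes were looked at. Of these 6 were detected, 2 were called higher and 0 lower, beside 4.16% and 2.2% of all detected miRNAs. The 6 had a median log2 ratio of 0.19, beside -0.044 for all. The higher ones were miR-146b-5p, a brake on NF-κB signalling, at 1.05 ± 0.072, and miR-342-3p at 1.05 ± 0.11. With the GC trend removed their ratios were 0.91 and 0.999, just under the threshold of 1, so that 0 were called, beside 1.96% higher of all. With the arrays centred on the median 3 were called higher, miR-155-5p being the added one, beside 23.7% of all. miR-155-5p, which rises in activated lymphocytes and macrophages, had 0.21 ± 0.095, and miR-150-5p, of mature lymphocytes, 0.17 ± 0.077, a value close to that of miR-181a-5p. The marker miRNAs shared by all leukocytes, miR-142-3p and miR-142-5p, were below the detection limit on both arrays. The 3 lymphoid markers summed to 19253.0 scanner units in MCT-treated and 9111 in untreated lung. The 4 myeloid markers, of which 2 were detected, summed to 2072 in MCT-treated and 1520.5 in untreated lung. These sums are uncorrected and hold the higher empty-spot level of the MCT array. miR-223-3p, of myeloid cells, read 1262 in MCT-treated and 1194 in untreated lung, and the rest of the myeloid gap came from probes below the limit on the MCT array. After normalization miR-223-3p had a log2 ratio of -1.21 ± 0.21, against the direction of the sum, and was called lower. Centred on the median its ratio was -0.25. The part of a changed share of leukocytes in the miR-181 ratios was not tested.

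The 9 miRNAs listed as restraining NF-κB signalling and inflammation in endothelium, where miR-181b acts, were all detected. Of these 2 were called higher, miR-146b-5p and miR-221-3p, and 0 lower, beside 4.16% and 2.2% of all 409 detected miRNAs. The median log2 ratio of the 9 was 0.038, beside -0.044 for all. The ratio of miR-221-3p, which acts on the stem cell factor receptor Kit, was 1.04 ± 1.54, an SD wider than the ratio itself, and 1 of its 3 untreated spots was far below the other 2. With the GC trend removed miR-146b-5p and miR-221-3p both had 0.91, just under the threshold, and 0 of the 9 were called, beside 1.96% higher of all. With the arrays centred on the median 4 were called higher, beside 23.7% of all. miR-31-5p, which in human endothelial cells limits the adhesion molecule E-selectin, had 0.39 ± 0.040. The endothelial marker miR-126-3p had -0.12 ± 0.12, and miR-126-5p was detected in untreated lung but not in MCT-treated lung. It read 129.5 in untreated lung, against a limit of 116, and 240 in MCT-treated lung, against a limit of 284. The MCT limit is the stricter one, since the empty spots there (median 252.8) were brighter than the median miRNA spot (226). Detection on 1 array alone is therefore not read as a loss. Of the 6 epithelial markers, all detected, 5 were above 0 and 0 were called, and both smooth muscle markers, miR-143-3p and miR-145-5p, were detected with 0.33 ± 0.41 and 0.28 ± 0.053. Thus endothelial, epithelial and smooth muscle markers of lung were present on both arrays. Also detected were 1 of 2 erythroid, 3 of 4 heart and skeletal muscle and, in untreated lung alone, 1 of 1 liver markers. The liver marker miR-122-5p read 118.3 there, just above the limit of 116. The brain markers miR-124-3p and miR-9-5p were below the limit on both arrays.

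The miRNAs with a pattern most like each member were found by the distance between their normalized log2 levels over the 2 arrays. miR-181c-5p had no close match. The nearest were miR-34a-5p, a target of p53, at a distance of 0.518 log2 with a ratio of 0.91 ± 0.032, then miR-342-3p at 0.529 and miR-133b-3p, of muscle, at 0.603. For miR-181d-5p the nearest was miR-34b-3p, a ciliated-cell miRNA, at 0.032 with a ratio of 0.93 ± 0.12, followed by miR-10b-5p at 0.111 and miR-467e-3p at 0.225. miR-181a-5p was nearest to miR-143-3p, of smooth muscle, at 0.135, then to miR-690 at 0.184 and miR-30d-5p at 0.308. miR-181b-5p was nearest to the epithelial miR-200a-3p at 0.068 with a ratio of 0.51 ± 0.089, then to miR-152-3p at 0.116 and miR-31-5p at 0.131. In each case the likeness rests on 2 values and on probes with different responses.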

How the data were processed

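Per the file headers, the scanner tables hold the median pixel intensity and its standard deviation for each of 3968 spots; these intensities were deposited without background subtraction. The authors' deposited table of processed intensities holds values whose background had been removed and whose scaling the sources used here do not describe. Normexp in limma 3.58.1 (R 4.3.3) was run on all spots with an offset of 50, and miRNA spots were taken to log2, quantile normalized across both arrays and averaged over 3 spots. Detection needed 2 spots above the 95th percentile of 257 empty spots. In MCT-treated lung 316 miRNAs were detected and in untreated lung 403. Arrays rest on their number, 1 per group, which limits the precision. The steps were tested on simulated arrays that shared the same scale of signal and differed in empty-spot level and in the changes put in. A difference in overall signal between the arrays was not simulated. The members and lists were chosen with earlier results of these data known. Named are the 4 members, their other arms, up to 3 detected miRNAs per list with the largest ratios, the 3 nearest patterns per member, and families at least as wide. Pairs of near-identical targets, and other miRNAs given with values, were chosen after their values were seen. Printed sequences are the array targets, and positions of mature miRNAs are RefSeq's (GRCm38.p6). Alternatives changed the background, offset, normalization, spots, filter, threshold, GC trend (lowess, statsmodels 0.14.6) and source of values. Python 3.11.15 with numpy 2.4.6, pandas 2.3.3 and matplotlib 3.10.9 did the rest.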

Additional observations from a re-analysis of the deposited data

How the results depend on the processing

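The order of the 4 log2 ratios and the lead of the c/d strands were the same under all 18 alternatives, of which 2, the centrings on miRNAs detected on both arrays, were chosen after seeing the data. As reported the difference between the c/d and a/b strands was 0.95, the range 1.48 and the count of members called 1. Without normalization, or with a constant scaling of each array (5S probes or any of the centrings), the ratios gave a difference of 1.44 and a range of 2.19. A constant per array cannot change the order of the ratios or the gaps between them, so these alternatives count as 1 for both. The cause of the gap to the quantile values was not tested. Ratios are given below in the order miR-181c-5p, miR-181d-5p, miR-181a-5p and miR-181b-5p. Without normalization they were 2.90, 2.25, 0.71 and 1.55 with 3 called; scaled by the 5S probes 2.68, 2.03, 0.49 and 1.33 with 3 called. Centred on the median they were 2.68, 2.03, 0.49 and 1.34 with 3 called, and on the 75th percentile 2.30, 1.66, 0.11 and 0.96 with 2 called. Centred on the median of miRNAs detected on both arrays they were 1.51, 0.86, -0.68 and 0.16 with 1 called, and on their 75th percentile 1.84, 1.197, -0.35 and 0.50 with 2 called. So miR-181a-5p turned lower under both, where all detected miRNAs had medians of -0.69 and -0.35. Cyclic loess left miR-181d-5p at 1.09, miR-181a-5p at 0.066 and miR-181b-5p at 0.41, with a difference of 1.16 and 2 called. The authors' deposited values gave 1.08, 0.13 and 0.32 for these 3, a difference of 1.11 and 2 called at a pseudocount of 50, and 1.14, 0.13 and 0.33, a difference of 1.16 and 2 called at 16. Calls on the deposited values were made without the rule on spot overlap. With the empty-spot median subtracted miR-181d-5p had 1.14 and miR-181b-5p 0.58, with a difference of 1.09 and 2 called. With the GC trend removed miR-181d-5p had 0.83, miR-181a-5p 0.043 and miR-181b-5p 0.42. The count was also 2 with an offset of 16, with the median of the spots, without repeat spot 3 and at a threshold of 1.5-fold. The added call was miR-181d-5p, or also miR-181b-5p where 3 were called. The shares of all detected miRNAs called higher were 4.16% as reported, 34.7% without normalization and 1.47% when centred on the median of miRNAs detected on both arrays. The counts of higher against lower miRNAs were 17 and 9 as reported, 142 and 0 without normalization, 97 and 0 with 5S scaling or median centring, 49 and 8 on the 75th percentile, and with centring on miRNAs detected on both 6 and 125 for the median and 17 and 43 for the 75th percentile. They were 46 and 38 with the empty-spot median subtracted, 24 and 19 with an offset of 16, 8 and 6 with the GC trend removed, 46 and 44 at 1.5-fold, and 20 and 16 or 28 and 36 in the authors' deposited values at pseudocounts of 50 and 16. Signal over background limits the other arms, none of which could be measured.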
